A study of Mus musculus with 48 samples.

Results

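The data described here are 12 RNA-seq libraries of mouse left nodose ganglion, 6 collected at zeitgeber time 4 (ZT4, 4 h after lights on, the middle of the light phase) and 6 at ZT16 (4 h after lights off, early in the dark phase). They were chosen by tissue and time from the 48 libraries of a study that also sampled the arcuate nucleus and other times of day. All mice were male Rev-erba/b flox/flox animals on a C57Bl6/J background, aged 10 to 12 weeks, kept in 12 h of light and 12 h of dark at 27 C with chow always available. At each time, 3 libraries came from Control mice, which had received AAV8-TBG-EGFP by tail vein at 6 to 10 weeks of age, and 3 from HepDKO mice, which had received AAV8-TBG-Cre by the same route. The TBG promoter acts in hepatocytes, so the vector directs Cre to the liver and not to the ganglion, and Nr1d1 and Nr1d2 levels in these libraries do not check the genotype labels. Tissue was taken 2 to 4 weeks after the virus, and each library was made from the pooled left ganglia of 4 mice. The comparison asked which genes and pathways differed between mid-light and early dark, over both genotypes.

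The nodose ganglion holds the cell bodies of vagal sensory neurons, which carry signals from the gut, liver, heart and lungs to the brainstem, surrounded by satellite glia and by the Schwann cells of the nerve. Most cells run a molecular clock in which BMAL1 (gene Arntl) and CLOCK or NPAS2 switch on the Per, Cry, Nr1d and Dbp genes through E-box sequences, the PER and CRY proteins then repress that activity, and the REV-ERB receptors encoded by Nr1d1 and Nr1d2 repress Arntl, Npas2 and Nfil3. Mice are mostly active, feed and have a higher body temperature in the dark phase.

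Short stretches of promoter are shown for the 2 motifs that bear on the clock and heat shock genes described next, with the motif in capitals: the E-box CACGTG, bound by BMAL1 with CLOCK, and the heat shock element core GAANNTTC, bound by heat shock factors. Both motifs read the same on the 2 strands. Sequences are from RefSeq, build GRCm38.p6, 5′ to 3′ on the strand of the gene.
Per1 (chr11:69098741-69098830, plus strand): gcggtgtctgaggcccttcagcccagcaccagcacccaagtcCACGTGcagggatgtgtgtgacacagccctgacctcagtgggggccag
Cry1 (chr10:85185067-85185156, minus strand): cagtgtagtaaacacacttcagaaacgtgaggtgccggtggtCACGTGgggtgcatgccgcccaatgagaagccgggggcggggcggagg
Hspa1a (chr17:34972213-34972302, minus strand): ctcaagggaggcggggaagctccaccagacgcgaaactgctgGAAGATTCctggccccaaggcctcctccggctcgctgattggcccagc
The E-box started 166 bases before the RefSeq start of Per1 and 60 bases before that of Cry1, and the heat shock core started 104 bases before that of Hspa1a. The Hspa1b promoter (chr17:34959295-34959384, minus strand) held the same 90 bases as Hspa1a, and the 2 promoters were identical at 247 of 250 positions.

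The shares of promoters with these motifs were counted in the 250 bases before each RefSeq start, for 11397 of the 14481 genes tested. The E-box was present for 9.56% of these, for 11 of 98 matched genes that were higher at ZT16 (11.2%) and for 7 of 56 that were lower (12.5%), and in 6.02% of all 32851 RefSeq windows. The heat shock core was present for 6.17% of tested genes, for 11 of 98 higher genes (11.2%), for 1 of 56 lower genes (1.79%), and in 6.69% of all windows. Dnaja1, Hspa1a and Hspa1b were among the higher genes with the heat shock core, and Cry1, Lonrf3 and Hsph1 among those with the E-box. The ROR and REV-ERB element TAGGTCA, searched on both strands, was present for 2.04% of tested genes, 3 of 98 higher genes, which included Glul, and 2 of 56 lower genes. The D-box TTANGTAA was present on either strand for 1.66% of tested genes, 1 of 98 higher and 0 of 56 lower genes. These matches describe the letters of the windows. The RefSeq start used for Per1 lies inside the longer gene model of GENCODE M21.

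Libraries held from 1813994 to 8967919 counts. The 2 shallowest were Control ZT4 replicate 1 and Control ZT16 replicate 3 (2889210 counts), and these also had the lowest scores for skeletal muscle, 9.56 and 8.53 (mean log2 CPM over 16 tested markers, CPM being counts scaled to the library total), against 10.98 to 12.01 in the other 10 libraries. Muscle transcripts made up 3.91% to 14.0% of counts at ZT4 and 1.90% to 15.4% at ZT16, and the muscle score was 11.22 ± 0.880 at ZT4 and 10.96 ± 1.25 at ZT16 (SD, n = 6 libraries each; two-sided exact permutation p = 0.635, adjusted over 13 cell types 0.878). Adipocyte transcripts made up 0.0466% to 0.223% of counts at ZT4 and 0.178% to 0.316% at ZT16. The adipocyte score was 4.92 ± 1.15 at ZT4 and 5.88 ± 0.582 at ZT16 (n = 6 each, exact permutation p = 0.115, adjusted 0.439), and its lowest values were 3.46 in Control ZT4 replicate 1 and 3.602 in HepDKO ZT4 replicate 2. No score passed after adjustment; the smallest p that the design allows is 0.005, which for a single score among 13 adjusts to 0.065, so a single score could not have passed. As a share of counts in place of a score, the adipocyte markers had an exact permutation p of 0.025 (adjusted 0.163, n = 6 each). Another 2 libraries stood apart by the transcripts Lars2, a mitochondrial leucyl-tRNA synthetase gene, and Mir6236. Lars2 was at 13418 CPM in Control ZT4 replicate 3 and 5804 CPM in HepDKO ZT4 replicate 3, against 26.4 to 188 CPM in the other 10 libraries. Mir6236 was at 1962 and 742 CPM in the same 2 libraries and at 0.6296 to 60.5 CPM in the rest. Whether these reads are transcripts of the 2 named genes or other sequence counted there was not tested. In bulk tissue, fewer cells of a type and less RNA per cell cannot be told apart.

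Neuronal transcripts were scarce. The 26 neuron markers together took 0.0101% to 0.0251% of counts, 12 of them were at 0 in at least 1 library, and only 12 passed the filter on low counts. Among those at 0 in at least 1 library were Slc17a6, the vesicular glutamate transporter of these cells, and the receptors Glp1r, Cckar and Npy2r. Piezo2, the mechanosensitive channel, was the neuron marker with the lowest p; its CPM ran (lowest, median, highest) 59.03, 80.6 and 101 at ZT4 and 55.1, 68.8 and 77.1 at ZT16, with a log2 fold change of -0.26 (SE 0.11, edgeR adjusted p 0.276). The neuron score was 2.60 ± 0.418 at ZT4 and 2.48 ± 0.221 at ZT16 (n = 6 each, exact permutation p = 0.55, adjusted 0.878). Schwann cell markers, by contrast, took 1.85% to 4.36% of counts. The hemoglobin genes Hba-a1, Hba-a2, Hbb-bs and Hbb-bt were at 0 in all 12 libraries, so blood content could not be read from them.

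**Figure D1:**
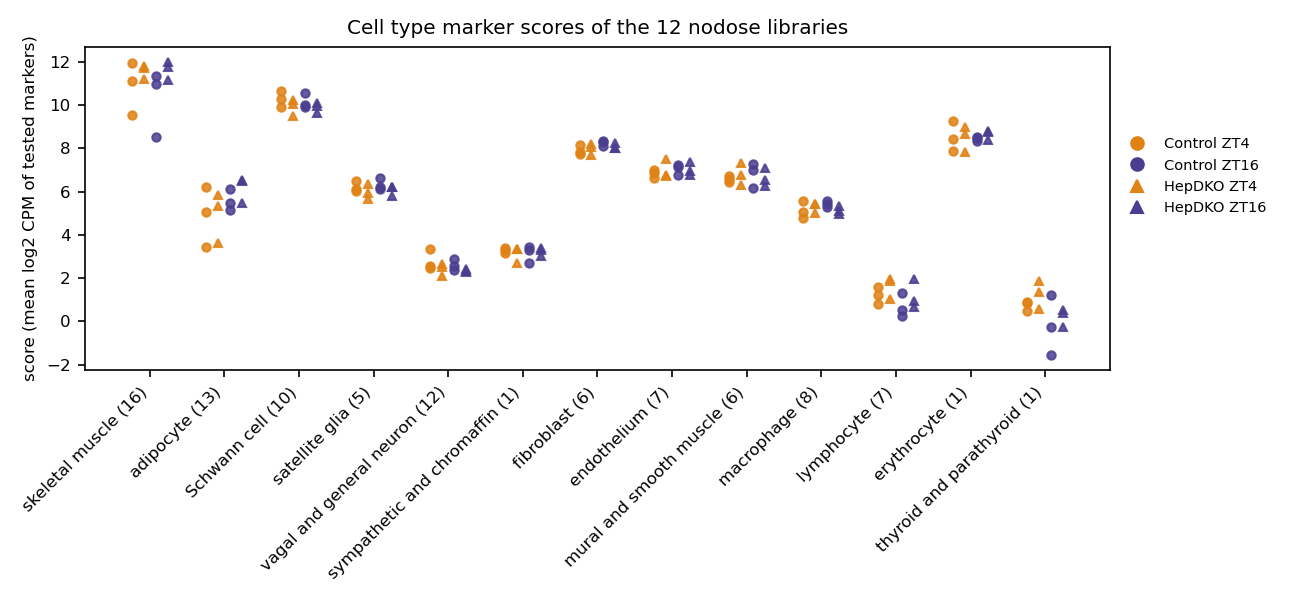
Cell type marker scores (y axis, mean log2 CPM of the tested markers of each list, their number in brackets) for each of the 12 libraries; circles are Control, triangles HepDKO, orange ZT4 and purple ZT16. The muscle scores of Control ZT4 replicate 1 (9.56) and Control ZT16 replicate 3 (8.53) lie below the other 10 libraries, and the adipocyte scores run from 3.46 to 6.22 at ZT4 and from 5.16 to 6.53 at ZT16.

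Of 14481 genes tested with genotype as a covariate, 203 differed between the times (quasi-likelihood F test of edgeR, Benjamini-Hochberg adjusted p under 0.05, 1.40% of genes tested). At ZT16, 123 genes were higher (0.849%) and 80 were lower (0.552%). The fold changes of these genes ran from 1.21 to 6.84 with a median of 1.56, and 41 were at least 2-fold (27 higher, 14 lower). In 146 of the 203 genes the 6 libraries of one time did not overlap the 6 of the other (96 higher, 50 lower); over all genes tested, 266 had no overlap (1.84%), 162 with all ZT16 libraries above (1.12%) and 104 with all below (0.718%). At an unadjusted p under 0.05 there were 1952 genes (13.5%). The median log2 fold change over all genes tested was -0.01, and a positive log2 fold change means higher at ZT16 throughout. Leaving out 1 library moved the count by over 1.5 times in 6 of 12 fits: it was 86 without Control ZT4 replicate 2, 124 and 111 without Control ZT16 replicates 1 and 2, 114 without HepDKO ZT4 replicate 2, and 123 and 115 without HepDKO ZT16 replicates 2 and 3. Without the 2 shallowest libraries, 194 genes passed; without the 2 libraries high in Lars2 and Mir6236, 126 passed; without the 2 libraries lowest in adipocyte score, 112 passed; with the adipocyte score as a covariate, 92 passed, of which 80 were among the 203; and with the muscle and adipocyte scores together as covariates, 265 passed, of which 150 were among the 203.

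**Figure D2:**
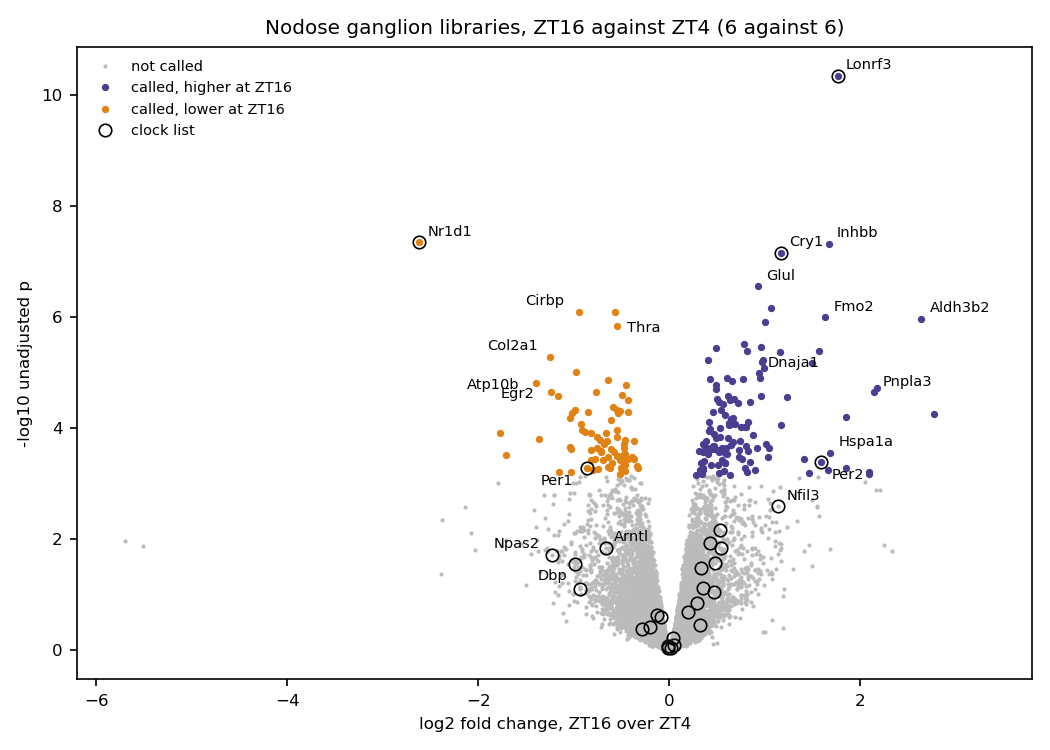
Each point is 1 of 14481 genes; the x axis is the log2 fold change of ZT16 over ZT4 and the y axis is minus log10 of the unadjusted p. Purple points are the 123 genes higher at ZT16, orange points the 80 lower, and black rings the 29 tested clock genes, of which 5 were among the 203.

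Of 30 clock genes, 29 were tested and 5 differed between the times: Lonrf3, Per2 and Cry1 were higher at ZT16 and Nr1d1 and Per1 were lower, against 1.40% of all genes tested. The other 24 did not pass, and the median log2 fold change over the 29 was 0.05 against -0.01 over all genes. Nr1d1 CPM ran (lowest, median, highest of 6 libraries, as for every such triple here) 55.1, 104 and 134 at ZT4 and 11.5, 17.03 and 19.3 at ZT16. No library of one time reached the range of the other, and the drop was 6.14-fold (log2 fold change -2.62, SE 0.21, edgeR adjusted p 0.000231). Its paralog Nr1d2 ran 91.9, 112 and 190.3 CPM at ZT4 and 72.96, 113 and 148 at ZT16, ranges that overlapped widely (log2 fold change -0.20, SE 0.22, edgeR adjusted p 0.794). Nr1d1 (chr11:98767932-98775333, minus strand, GRCm38) shares 263 exon bases with Thra (chr11:98740638-98769006, plus strand), the thyroid hormone receptor alpha gene that was also lower at ZT16; whether reads were counted by strand is not given in the sources used here, so reads from the shared bases cannot be told apart.

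Among the repressors of the negative limb, Cry1, a cryptochrome that silences BMAL1 and CLOCK, ran 8.59, 11.7 and 14.1 CPM at ZT4 and 24.3, 26.9 and 30.1 at ZT16. Every ZT16 library was above every ZT4 library (log2 fold change 1.17, SE 0.12, edgeR adjusted p 0.00025). Per2, a period protein that acts with the cryptochromes, ran 11.5, 22.1 and 44.7 CPM at ZT4 and 62.02, 67.4 and 102 at ZT16. Its groups did not overlap either, but the ZT4 libraries were spread over a wide range (log2 fold change 1.60, SE 0.32, edgeR adjusted p 0.0353). Per1, its paralog, fell; it ran 67.4, 105 and 136 CPM at ZT4 and 37.1, 54.3 and 92.3 at ZT16. The 2 groups of Per1 overlapped through Control ZT16 replicate 2 at 92.3 CPM and HepDKO ZT4 replicate 1 at 67.4 CPM (log2 fold change -0.87, SE 0.19, edgeR adjusted p 0.0417). The calls of Per1 and Per2 were lost in 9 and 10 of the 12 fits that each left out 1 library, while their log2 fold changes ran from -1.002 to -0.72 and from 1.43 to 1.96. Per1 passed only without Control ZT16 replicate 2, HepDKO ZT4 replicate 1 or HepDKO ZT4 replicate 3 (edgeR adjusted p over the 12 fits 0.0146 to 0.0983), and Per2 only without Control ZT16 replicate 3 or HepDKO ZT4 replicate 3 (0.00467 to 0.0998). In 13 other settings Per1 passed in 5 and Per2 in 8; with the adipocyte score as a covariate neither passed (edgeR adjusted p 0.161 and 0.146), nor with muscle and adipocyte scores together (0.195 and 0.107) or with no filter on low counts (0.0725 and 0.0775). Per3 and Cry2 did not pass, with log2 fold changes of 0.47 (SE 0.25) and 0.34 (SE 0.14).

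Lonrf3, a RING finger gene that cycles in many tissues, had the lowest p of all genes tested. Its CPM ran 8.698, 10.9 and 12.6 at ZT4 and 32.5, 36.6 and 40.5 at ZT16, with tight groups far apart (log2 fold change 1.76, SE 0.10, edgeR adjusted p 6.55e-07). Lonrf3, Cry1 and Nr1d1 passed in each of the 12 fits that left out 1 library and under every other setting tried.

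The activators of the clock did not pass. Arntl ran 16.6, 31.6 and 40.5 CPM at ZT4 and 12.2, 18.2 and 28.8 at ZT16 (log2 fold change -0.67, SE 0.23, edgeR adjusted p 0.216), and in the fits that left out 1 library it passed in 1, without HepDKO ZT4 replicate 3 (adjusted p 0.0484). Npas2, which can stand in for CLOCK, ran 2.801, 9.65 and 16.7 CPM at ZT4 and 2.800, 2.99 and 9.12 at ZT16, with overlap at the lowest values (log2 fold change -1.23, SE 0.45, edgeR adjusted p 0.247). Clock itself had 139 ± 9.95 CPM at ZT4 and 137 ± 9.95 at ZT16 (SD, n = 6 each), a difference smaller than its spread.

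The proline and acidic amino acid-rich (PAR) bZIP factors, which carry clock output through D-boxes, and their repressor Nfil3 also did not pass. Nfil3 ran 2.02, 11.5 and 22.03 CPM at ZT4 and 16.4, 25.9 and 34.3 at ZT16 (log2 fold change 1.14, SE 0.30, edgeR adjusted p 0.0964). It passed with DESeq2 (adjusted p 0.0056), limma-voom with quality weights (0.0344), 1 surrogate variable (0.0261) and without HepDKO ZT4 replicate 1 (0.0333). Dbp ran 10.1, 18.6 and 46.7 CPM at ZT4 and 7.600, 12.96 and 19.2 at ZT16; Control ZT4 replicate 3 and HepDKO ZT4 replicate 3, the libraries high in Lars2, lay at 46.7 and 44.8 CPM, above the other 10, and the groups overlapped (log2 fold change -0.99, SE 0.39, edgeR adjusted p 0.289). Tef and Hlf had log2 fold changes of 0.36 (SE 0.18) and 0.48 (SE 0.19), and Hlf passed without HepDKO ZT4 replicate 3 (edgeR adjusted p 0.0398). Among the ROR receptors, which activate the genes that REV-ERBs repress, Rora had a log2 fold change of 0.19 (SE 0.15), while Rorb was too low to test. Among other clock outputs, Ciart, a repressor of BMAL1, had -0.93 (SE 0.49), the cell cycle kinase Wee1 0.54 (SE 0.19) and the tetraspanin Tspan4 0.42 (SE 0.15). Of the 29 clock genes, 14 had an unadjusted p under 0.05, against 13.5% of all genes tested.

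The clock calls moved without Control ZT4 replicate 3 and HepDKO ZT4 replicate 3. In that fit Per3, Tef, Hlf and Bhlhe41, a repressor of clock genes, passed as higher at ZT16, with log2 fold changes of 0.92, 0.65, 0.77 and 0.64 (edgeR adjusted p 0.0115, 0.0246, 0.0229 and 0.0351). Arntl passed as lower, at -0.92 (edgeR adjusted p 0.0332), and Per1 missed the threshold, at -0.72 (edgeR adjusted p 0.0541). Nr1d2 and Ciart changed sign, to 0.14 and 0.15, and did not pass in either fit. Nr1d1, Cry1, Per2 and Lonrf3 passed with and without these libraries. The part of the Lars2 and Mir6236 levels in these differences was not tested.

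**Figure D3:**
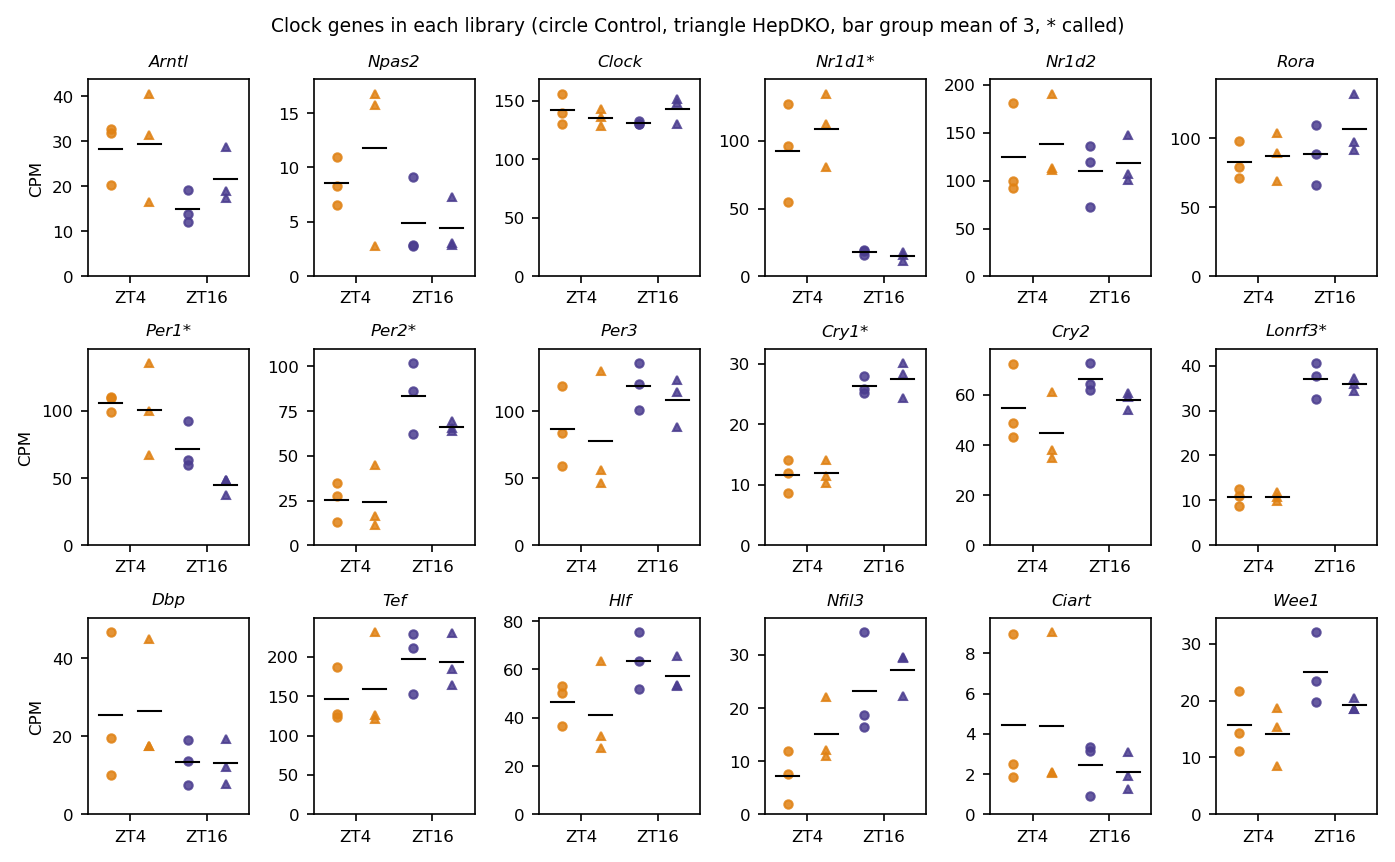
CPM of 18 clock genes (y axes, from 0) in each library, grouped on the x axis by ZT4 (orange) and ZT16 (purple); circles are Control, triangles HepDKO, bars the mean of 3 libraries, and an asterisk marks the 5 genes that passed the test. Nr1d1, Cry1, Per2 and Lonrf3 show no overlap between the times, while Arntl, Dbp and Nfil3 overlap.

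Outside the clock lists, the 10 genes with the lowest p among those higher at ZT16 were Inhbb, Glul, Cys1, Fmo2, Aldh3b2, Hcn4, Slc7a2, Dpep1, Rev1 and Anxa8. The libraries of ZT4 and ZT16 did not overlap for any of the 10, as can follow from picking genes by low p. Over all genes tested, 1.12% had every ZT16 library above every ZT4 library. Inhbb, the beta B subunit of activins and inhibins, ran 4.06, 5.44 and 6.07 CPM at ZT4 and 13.2, 16.1 and 23.1 at ZT16, all ZT16 values being more than double the highest ZT4 value (log2 fold change 1.67, SE 0.16, edgeR adjusted p 0.000231). Glul encodes glutamine synthetase, which turns glutamate into glutamine in satellite glia and also in muscle and fat. It ran 503, 568 and 624 CPM at ZT4 and 944, 1004 and 1378 at ZT16 (log2 fold change 0.93, SE 0.10, edgeR adjusted p 0.000793). The other 4 tested satellite glia markers did not pass, and the median log2 fold change of the 5 was 0.08. The satellite glia score was 6.10 ± 0.287 at ZT4 and 6.21 ± 0.263 at ZT16 (n = 6 each, exact permutation p = 0.45, adjusted 0.878). Its ranges overlapped, at 5.67 to 6.48 and 5.80 to 6.63. As a share of counts these markers took 0.0854% to 0.136% at ZT4 and 0.141% to 0.179% at ZT16, without overlap (exact permutation p = 0.005, adjusted 0.065, n = 6 each). Glul was the most abundant of them, so the share largely repeats the result of that gene.

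Fmo2, a flavin monooxygenase that oxidizes xenobiotics, ran 76.1, 96.7 and 134 CPM at ZT4 and 208, 302 and 447 at ZT16 (log2 fold change 1.63, SE 0.18, edgeR adjusted p 0.00154). Hcn4, a pacemaker channel opened by hyperpolarization and cyclic AMP, ran 84.4, 99.1 and 112 CPM at ZT4 and 123, 217 and 264 at ZT16, a wide spread in the dark phase (log2 fold change 1.00, SE 0.13, edgeR adjusted p 0.00165). Slc7a2, a transporter of cationic amino acids, rose from 226 ± 44.1 to 388 ± 56.5 CPM (mean ± SD, n = 6 each; log2 fold change 0.78, edgeR adjusted p 0.00335). The remaining genes of this set were Cys1, which encodes the ciliary protein cystin (1.07, adjusted p 0.00145 in the same edgeR test), the membrane dipeptidase Dpep1 (0.96, 0.00337), the translesion DNA polymerase Rev1 (0.49, 0.00337), the annexin Anxa8 (1.57, 0.00337) and the aldehyde dehydrogenase Aldh3b2 (2.64, 0.00154). Aldh3b2 was scarce, at 0, 0.478 and 1.15 CPM at ZT4, where 0 was its lowest value, and 2.13, 3.27 and 6.201 at ZT16. Rev1 shares 1240 exon bases with Eif5b on the opposite strand, so its reads may include those of Eif5b.

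Among the genes lower at ZT16 with the lowest p were Cirbp, Thra, Col2a1, Cplx2, Slc30a1, Atp10b, Magi1, Fbn1 and Egr2. None of these 9, likewise picked by low p, had overlap between the times, against 0.718% of all genes tested with every ZT16 library below. Cirbp, an RNA-binding protein whose transcript rises in the cold, ran 28.8, 37.97 and 52.6 CPM at ZT4 and 16.4, 20.2 and 22.8 at ZT16 (log2 fold change -0.94, SE 0.12, edgeR adjusted p 0.00145). Rbm3, the other cold-inducible RNA-binding protein, had a log2 fold change of -0.20 (SE 0.08, edgeR adjusted p 0.263) and did not pass. Thra ran 123, 134 and 139.6 CPM at ZT4 and 78.9, 90.8 and 102 at ZT16 (log2 fold change -0.55, SE 0.07, edgeR adjusted p 0.00173).

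Egr2, the transcription factor that Schwann cells need to make myelin and that also responds fast to stimuli, ran 71.4, 131 and 177 CPM at ZT4 and 37.8, 53.3 and 69.9 at ZT16 (log2 fold change -1.24, SE 0.19, edgeR adjusted p 0.0081). None of the 10 Schwann cell markers passed, their median log2 fold change was -0.09, and the Schwann score was 10.1 ± 0.393 at ZT4 and 10.0 ± 0.299 at ZT16 (n = 6 each, exact permutation p = 0.675). Col2a1, the collagen of cartilage, ran 16.97, 24.8 and 41.8 CPM at ZT4 and 8.57, 10.99 and 16.4 at ZT16 (log2 fold change -1.25, SE 0.18, edgeR adjusted p 0.00395). The rest of this set were Cplx2, a complexin of synaptic vesicle release (-0.97, adjusted p 0.0056 in the same edgeR test), the zinc exporter Slc30a1 (-0.64, 0.00634), the phospholipid flippase Atp10b (-1.40, 0.00672) and the junction scaffold Magi1 (-0.45, 0.00688). All 19 genes named in these sets passed in each of the 12 fits that left out 1 library and under every other setting tried. They were picked for the lowest p in these same libraries, so this is no separate support. Of 16 called genes named from the other lists, 7 passed in every fit that left out 1 library. The opposite-strand gene Gm9913 shares 2442 exon bases with Fbn1, so their reads cannot be told apart without strand. The same holds for Slc30a1 (468 bases shared with 1700034H15Rik), Slc7a2 (162 with Gm26584) and Glul (67 with Teddm2), and for Atp10b, which shares exon bases with Gm12144 and 2 other such genes.

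The heat shock and cold-inducible list held 7 genes that passed. Of its 21 genes, 6 were higher and 1, Cirbp, was lower, against 0.849% and 0.552% of all genes tested. The median log2 fold change was 0.50 against -0.01. Of the 21 estimates 18 were positive, and 17 had an unadjusted p under 0.05, against 13.5% of all genes tested. The members that rose are cytosolic chaperones and their partners. Dnaja1, a DNAJ co-chaperone of HSP70, ran 72.98, 81.2 and 95.3 CPM at ZT4 and 124, 144 and 214 at ZT16 (log2 fold change 0.94, SE 0.14, edgeR adjusted p 0.0056). Hspa8, the constitutive HSP70, ran 640.0, 693 and 822 CPM at ZT4 and 897, 1134 and 1629.5 at ZT16 (log2 fold change 0.77, SE 0.12, edgeR adjusted p 0.00624). In both genes every ZT16 library was above every ZT4 library. Dnaja1 shares 608 exon bases with Smu1 on the opposite strand.

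Chordc1, an HSP90 partner, rose from 39.5 ± 4.47 to 57.8 ± 8.52 CPM (mean ± SD, n = 6 each; log2 fold change 0.54, edgeR adjusted p 0.012). The nucleotide exchange factor Hsph1 ran 55.1, 77.2 and 92.3 CPM at ZT4 and 109, 119.9 and 188 at ZT16 (log2 fold change 0.82, edgeR adjusted p 0.0279). The stress-inducible HSP70 genes had larger fold changes and wider spreads: Hspa1a ran 3.62, 5.55 and 7.59 CPM at ZT4 and 9.21, 14.2 and 35.9 at ZT16 (log2 fold change 1.68, SE 0.33, edgeR adjusted p 0.0285), and Hspa1b ran 6.01, 7.75 and 10.8 and 12.2, 23.3 and 61.7 CPM (1.85, SE 0.38, adjusted p 0.0419). The highest value of both was in Control ZT16 replicate 3, and the next highest in HepDKO ZT16 replicate 3. Hspa1a and Hspa1b are near-identical copies, so reads could be split between them and their separate values are uncertain; Hspa1a also shares 564 exon bases with Gm20481 on the opposite strand. Leaving out 1 library at a time ended the call in 8 of 12 fits for Hsph1, 6 for Hspa1a and 9 for Hspa1b. Counts of higher genes in the list ran from 3 to 7 over these fits, in which 55 to 154 of all genes tested were higher. With the adipocyte score as a covariate 2 genes, Dnaja1 and Hspa8, passed as higher, with a list median of 0.42. In that fit 66 of all 14481 genes tested were higher, against 123 in the main fit. DESeq2 called 11 of the 21 higher and 1 lower, against 1.76% and 1.39% of all genes tested. Without the 2 libraries high in Lars2, neither Hspa1a nor Hspa1b passed (edgeR adjusted p 0.137 and 0.178).

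Of 20 genes of endoplasmic reticulum chaperones and stress factors, 2 were higher and 0 lower, against 0.849% and 0.552% of all genes tested, 19 estimates were positive, and the median log2 fold change was 0.19. Ddit3, the stress transcription factor CHOP, rose from 15.1 ± 3.13 to 23.3 ± 2.13 CPM with no overlap (mean ± SD, n = 6 each; log2 fold change 0.65, SE 0.13, edgeR adjusted p 0.0262). Herpud1, which helps degrade misfolded proteins, rose from 63.7 ± 9.11 to 86.6 ± 8.200 CPM, with a small overlap (log2 fold change 0.44, SE 0.10, edgeR adjusted p 0.0383). Xbp1 and Manf, also induced by unfolded proteins, had 0.36 (adjusted p 0.0514 in the same edgeR test) and 0.58 (0.0877). In the fits that left out 1 library, Ddit3 lost its call in 5 of 12 and Herpud1 in 8 of 12. Over 13 other settings Ddit3 passed in 11 and Herpud1 in 9. DESeq2 called 5 of the 20 higher, against 1.76% of all genes tested.

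Of 18 glucocorticoid-responsive genes tested, 0 were higher and 2 lower, against 0.849% and 0.552% of all genes tested. DESeq2 called 3 higher and 3 lower, against 1.76% and 1.39%. Calls by limma-voom with quality weights were also 3 and 3, against 221 and 185 of all 14481 genes tested. The median log2 fold change was -0.04 and turned positive in 7 of 25 other fits, up to 0.06. Nfkbia, the inhibitor of NF-kappaB, ran 55.9, 58.8 and 70.3 CPM at ZT4 and 36.1, 40.5 and 54.9 at ZT16, without overlap (log2 fold change -0.53, SE 0.09, edgeR adjusted p 0.0123). Errfi1, an inhibitor of EGF receptor signalling, ran 85.02, 93.8 and 99.2 CPM at ZT4 and 53.5, 60.6 and 90.6 at ZT16; Control ZT16 replicate 2 lay within the ZT4 range (log2 fold change -0.54, SE 0.10, edgeR adjusted p 0.0183). Fkbp5, a co-chaperone of the glucocorticoid receptor, ran 32.4, 55.4 and 88.7 CPM at ZT4 and 86.8, 141 and 257 at ZT16, with a small overlap, and missed the threshold (log2 fold change 1.36, SE 0.30, edgeR adjusted p 0.052). Sgk1, a kinase of salt and stress responses, had -0.54 (SE 0.13, edgeR adjusted p 0.0536), and passed when library sizes were scaled with RLE factors (adjusted p 0.0499). With the adipocyte score as a covariate, neither Nfkbia (edgeR adjusted p 0.0662) nor Errfi1 (0.0974) passed. Over 13 other settings, this one included, Nfkbia passed in 10 and Errfi1 in 9.

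Among 19 immediate early genes, which respond within minutes to activity or growth factors, Egr2 was lower and none was higher, against 0.552% and 0.849% of all genes tested, with a list median of -0.22. Egr1 ran 20.1, 38.5 and 56.9 CPM at ZT4 and 12.7, 21.05 and 33.6 at ZT16 (log2 fold change -0.85, SE 0.26, edgeR adjusted p 0.156). The orphan receptor Nr4a1 had -0.54 (SE 0.14, edgeR adjusted p 0.0847) and its relative Nr4a3 1.05 (SE 0.33, adjusted p 0.156). The last 3 did not pass.

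**Figure D4:**
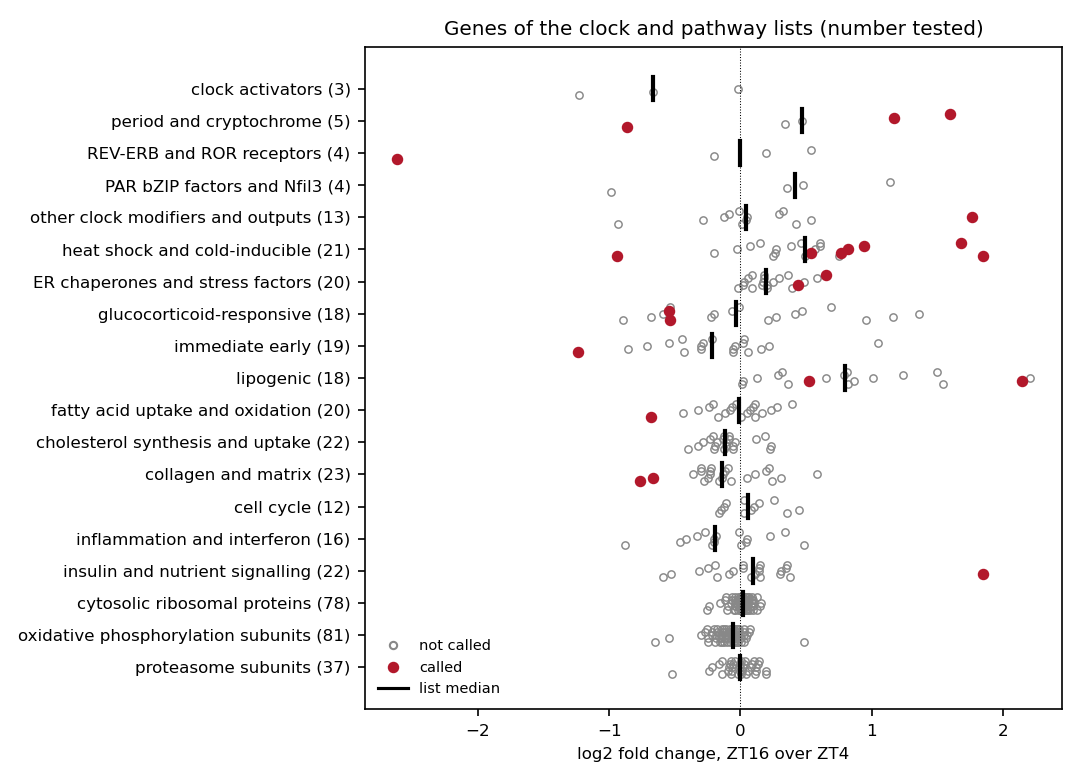
Log2 fold changes of ZT16 over ZT4 (x axis) for the tested genes of each clock and pathway list (rows, number tested in brackets); filled red points passed the test, open grey points did not, and black bars are list medians. The heat shock list holds 6 higher genes and 1 lower one, and all 18 lipogenic estimates are above 0 although 2 passed.

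All 18 lipogenic genes had positive estimates, with a median log2 fold change of 0.80 against -0.01 over all genes, but 2 passed the test, against 0.849% of all genes tested, and 11 had an unadjusted p under 0.05, against 13.5%. DESeq2 called 9 of the 18 higher, against 1.76%. Pnpla3, a lipid droplet hydrolase induced by feeding, ran 8.09, 11.4 and 20.4 CPM at ZT4 and 31.5, 68.4 and 80.7 at ZT16, with no overlap (log2 fold change 2.14, SE 0.31, edgeR adjusted p 0.0081). Elovl5, a fatty acid elongase, rose from 58.8 ± 7.08 to 84.7 ± 13.8 CPM (mean ± SD, n = 6 each; log2 fold change 0.52, edgeR adjusted p 0.0278). It passed in 5 of the 12 fits that left out 1 library (edgeR adjusted p 0.0153 to 0.0713) and in 7 of 13 other settings. Thrsp, a lipogenic factor induced by thyroid hormone, ran 9.61, 40.97 and 82.3 CPM at ZT4 and 91.6, 203 and 286 at ZT16; no libraries overlapped, but the spread within each time was wide (log2 fold change 2.21, SE 0.52, edgeR adjusted p 0.0712). Acly, which makes acetyl-CoA from citrate, was narrow at ZT4 and broad at ZT16, 137, 149.9 and 161 against 159, 428 and 711 CPM (fold change 2.83, edgeR adjusted p 0.0841).

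Beside these, of 13 adipocyte markers tested, Lep, the adipocyte hormone leptin, was the 1 that passed, as higher, against 0.849% of all genes tested (log2 fold change 1.41, SE 0.30, edgeR adjusted p 0.0326), 12 estimates were positive, the median was 0.70, and Cidea and Ucp1 were at 0 in some libraries. Lep CPM ran 1.06, 4.25 and 6.01 at ZT4 and 6.03, 10.9 and 14.3 at ZT16, and its call was lost in 9 of 12 fits that left out 1 library. Plin4, Retn and Fabp4 had log2 fold changes of 0.74, 0.98 and 0.90, and none of the 3 passed. With the adipocyte score as a covariate the lipogenic median was 0.38, and with muscle and adipocyte scores together it was 0.29. Under the adipocyte covariate Elovl5 did not pass (edgeR adjusted p 0.155), while Thrsp did, with a log2 fold change of 1.41 (edgeR adjusted p 0.000486). Without the 2 libraries lowest in adipocyte score, the median was 0.56 and 0 of 18 lipogenic genes passed, where 79 of all 14627 genes tested were higher. Pnpla3 had a log2 fold change of 1.99 in that fit (edgeR adjusted p 0.0644). Without the 2 libraries high in Lars2, Elovl5 and Lep did not pass (edgeR adjusted p 0.108 and 0.102), and the median was 0.92.

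G0s2, an inhibitor of the lipase ATGL that is induced by insulin, was the 1 gene of 22 in the insulin and nutrient list to pass, against 1.40% of all genes tested. Its CPM ran 6.004, 12.2 and 23.03 at ZT4 and 29.2, 42.2 and 67.6 at ZT16, without overlap (log2 fold change 1.85, SE 0.30, edgeR adjusted p 0.0139). Pik3r1, a regulatory subunit of PI3 kinase, had 0.38 (SE 0.10, edgeR adjusted p 0.0882), and the list median was 0.10. In the list of fatty acid uptake and oxidation, Angptl4, a lipoprotein lipase inhibitor induced by fasting, was the 1 of 20 genes to pass, against the same 1.40%. It fell from 38.8 ± 9.28 to 24.5 ± 2.63 CPM (mean ± SD, n = 6 each, log2 fold change -0.68, edgeR adjusted p 0.0256). Of the 12 fits that left out 1 library 6 did not call Angptl4, and it passed in 12 of 13 other settings. None of 22 cholesterol genes passed; 18 estimates were negative, the median was -0.12, and the sterol carrier Stard4 (-0.29) and mevalonate kinase Mvk (-0.40) had the lowest p.

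Of 23 collagen and matrix genes 2 fell, against 0.552% of all genes tested. Fbn1, the microfibril protein fibrillin, ran 619, 792 and 1007 CPM at ZT4 and 438, 475 and 552 at ZT16 (log2 fold change -0.76, SE 0.12, edgeR adjusted p 0.0081). Col15a1, a basement membrane collagen, ran 669, 780.3 and 1042 CPM at ZT4 and 436, 521 and 642 at ZT16 (log2 fold change -0.66, SE 0.13, edgeR adjusted p 0.0197). Neither gene had overlapping libraries, but Col15a1 lost its call without Control ZT4 replicate 2 (edgeR adjusted p 0.0705), HepDKO ZT16 replicate 2 (0.0534) or HepDKO ZT16 replicate 3 (0.0579), and with the adipocyte covariate (0.128). The other 21 genes did not pass, among them the crosslinking enzyme Lox (0.58, adjusted p 0.103 in the same edgeR test) and the collagen hydroxylase subunit P4ha1 (0.31, 0.187), and the list median was -0.14. The fibroblast score was 7.95 ± 0.224 at ZT4 and 8.16 ± 0.140 at ZT16 (n = 6 each, exact permutation p = 0.115, adjusted 0.439).

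Some gene groups held no gene that passed, where 1.40% of all genes tested did, a share at which lists of these sizes hold about 1 call or none. These were cell cycle genes (12 tested, median log2 fold change 0.06), inflammation and interferon genes (16, -0.19), cytosolic ribosomal proteins (78, 0.02), oxidative phosphorylation subunits (81, -0.06) and proteasome subunits (37, -0.0003). At an unadjusted p under 0.05 there were 3 inflammation and interferon genes and 0 in each of the other 4 groups, against 13.5% of all genes tested. Of the oxidative phosphorylation subunits 70 had negative estimates, but the sign of the median rested on single libraries: it was 0.07 without Control ZT4 replicate 3, 0.02 without Control ZT16 replicate 3, 0.10 without the 2 libraries high in Lars2, and -0.18 without Control ZT16 replicate 2. Medians of the cell cycle, ribosomal protein and proteasome lists also changed sign in 1, 3 and 11 of 25 other fits. No marker of muscle, neurons, Schwann cells, fibroblasts, endothelium, mural cells, macrophages or lymphocytes passed; all 7 tested lymphocyte markers had negative estimates, with a median of -0.53.

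**Figure D5:**
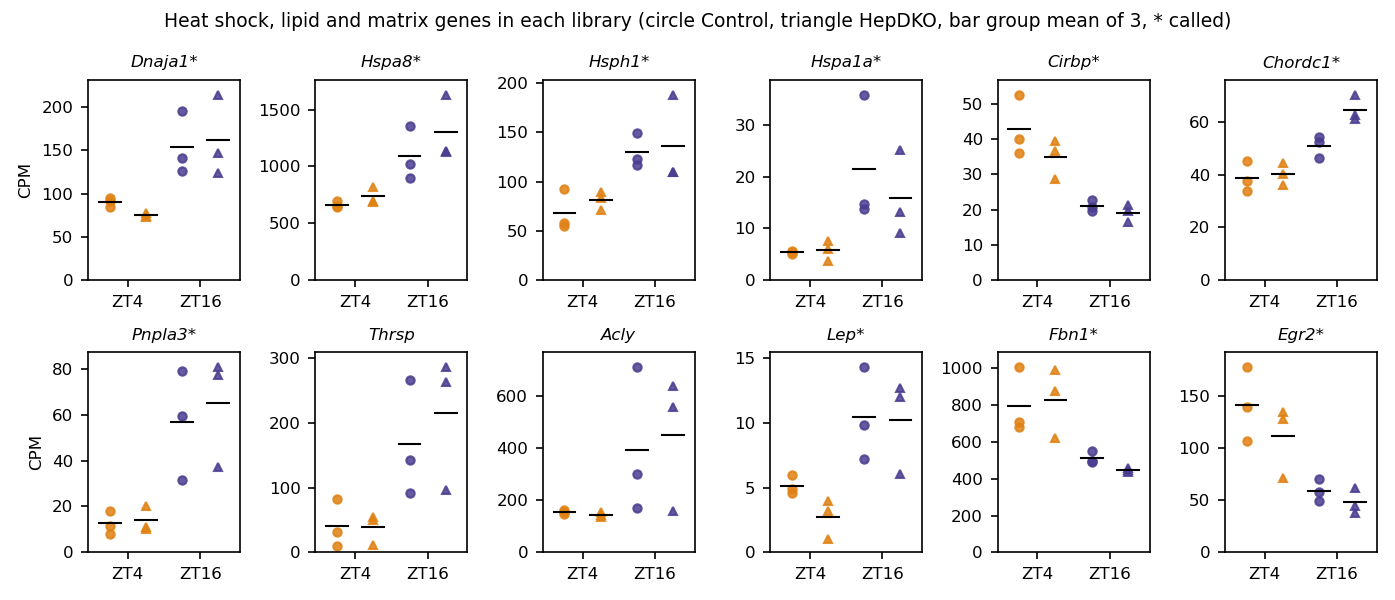
CPM (y axes, from 0) of 12 heat shock, RNA-binding, lipid, matrix and immediate early genes in each library at ZT4 (orange) and ZT16 (purple); circles are Control, triangles HepDKO, bars the mean of 3 libraries, and an asterisk marks genes that passed the test. Dnaja1 and Hspa8 separate the times completely, while Acly at ZT16 runs from 159 to 711 CPM and overlaps ZT4.

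The difference between the times was also set side by side in the 2 genotypes. All 203 genes had the same sign in Control and HepDKO, as can follow from having been called on both together. Tested within a genotype, with 3 libraries against 3, 25 genes passed in Control (0.173%; 22 higher, 0.152%, and 3 lower) and 5 in HepDKO (0.0345%; 4 higher, 0.0276%, and 1 lower). At an unadjusted p under 0.05 there were 1339 genes in Control (9.25%) and 1136 in HepDKO (7.84%). The 5 HepDKO genes were Lonrf3, Nr1d1, Inhbb, Cry1 and G0s2, and all but G0s2 also passed in Control. Nr1d1 had a log2 fold change of -2.38 in Control and -2.85 in HepDKO, Cry1 1.14 and 1.20, Lonrf3 1.81 and 1.73, and Inhbb 1.77 and 1.58. The differences between genotypes were -0.47 for Nr1d1 (SE 0.41), 0.06 for Cry1 (SE 0.24), -0.08 for Lonrf3 (SE 0.21) and -0.19 for Inhbb (SE 0.34), and none passed the test.

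The test of the difference between genotypes in the time effect found 0 genes with edgeR, with 453 at an unadjusted p under 0.05 (3.13%), and 0 genes with DESeq2 and with limma-voom with quality weights. The 2 lowest p belonged to Cox6b2, a testis-type subunit of cytochrome c oxidase, and Plcd3, a phospholipase C. Cox6b2 was scarce, with Control at 1.52, 1.04 and 0.6397 CPM at ZT4 and 3.51, 3.36 and 3.65 at ZT16 and HepDKO at 2.06, 2.47 and 2.14 and 1.24, 1.43 and 1.89 (difference in log2 fold change -2.35, SE 0.52). Plcd3 had 0.62 in Control and -0.33 in HepDKO (difference -0.95, SE 0.21). Of the 203 genes, 13 had an unadjusted p under 0.05 for the genotype difference, among them Dpep1, at 1.31 in Control and 0.65 in HepDKO, and G0s2, at 1.21 and 2.43; none passed after adjustment.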

How the data were processed

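RNA from pooled left nodose ganglia was sequenced after ribosomal RNA depletion (KAPA RNA HyperPrep with RiboErase), per the labels. The authors deposited raw counts for 25229 gene symbols; FastQC 0.11.7, Trim Galore 0.6.10, STAR 2.7.10b and build mm10 stand in the submitters' processing notes. The counting tool, annotation and use of strand are not given in the sources used here. Whether pools called replicates shared a litter or day is not stated, so p-values measure the spread between these pools.

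Counts of 12 libraries were filtered with filterByExpr on 4 groups of 3 (14481 genes left), scaled with TMM factors and fitted with edgeR 4.0.16 (robust quasi-likelihood, limma 3.58.1, R 4.3.3) with genotype and time as terms; a fit of 4 group means gave the within-genotype and interaction tests. P-values were adjusted by Benjamini-Hochberg over all genes, with a threshold of 0.05. CPM are TMM-scaled; marker scores are means of log2 CPM with a prior count of 2, compared by two-sided exact permutation within genotype. Alternatives were DESeq2 1.42.0, RLE factors, no filter, all 24 nodose libraries, a replicate block, composition covariates, limma-voom with quality weights, 1 surrogate variable (sva 3.50.0), no genotype term and leaving out each library; 4 more were added after seeing the data (leaving out 3 pairs of libraries, and the adipocyte score as a covariate). The fit was tested on simulated data.

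Some genes that the naming rule takes in are not reported here. Genes named are the clock lists, the 10 lowest p in each direction, up to 4 genes per other list by p, and the 2 lowest p for the genotype difference; every other name was picked once its values had been seen, as were Hspa1a, Hspa1b, Hsph1 and Rbm3. Members and lists were chosen with earlier results of these data known. Positions are from GENCODE M21 and promoters from RefSeq GRCm38.p6. No replicate repeated another: chi-square per degree of freedom was 10.55 to 63.42.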

Additional observations from a re-analysis of the deposited data

Results flagged for a closer look

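In groups of 6 libraries, 8 of 202 values examined had 1 library far from the other 5, where chance alone gives about 1 in 20. For cell type scores these were the muscle score of Control ZT4 replicate 1 (9.56) and of Control ZT16 replicate 3 (8.53), each below the rest of its time, and the sympathetic and chromaffin score of HepDKO ZT4 replicate 2 (2.705), which rests on 1 marker.

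For single genes, Inhbb was low in HepDKO ZT4 replicate 2 (4.06 CPM), and Hspa8 was high in HepDKO ZT4 replicate 1 (822 CPM). Control ZT16 replicate 2 was high for both Errfi1 (90.6 CPM) and Sgk1 (188 CPM). Fgfr2 was low in HepDKO ZT16 replicate 1 (3.26 CPM). Without Control ZT16 replicate 2 the log2 fold change of Errfi1 was -0.66 (edgeR adjusted p 0.000756), and that of Sgk1 was -0.64 (edgeR adjusted p 0.0193).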

How the results depend on the processing

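The count of 203 genes moved with the settings: DESeq2 gave 456, limma-voom with quality weights 406, 1 surrogate variable 693 and all 24 nodose libraries 131, while RLE factors gave 208, no filter 225 and muscle and adipocyte covariates 265. Leaving out 1 library gave 86 (without Control ZT4 replicate 2) to 254 (without HepDKO ZT4 replicate 1); fewer libraries were fitted there. It was 112 without the 2 libraries lowest in adipocyte score, 92 with the adipocyte score as covariate and 126 without the 2 libraries high in Lars2, all added after seeing the data. In Control, 25 genes became 132 with DESeq2, 72 with limma-voom, 49 without a filter, 13 with 24 libraries, 245 with muscle and adipocyte covariates, 4 without the 2 shallowest libraries, 10 without the 2 lowest in adipocyte score, 9 without the 2 high in Lars2, and 3 to 24 leaving out 1 library. In HepDKO, 5 became 66 with DESeq2, 21 with limma-voom, 3 with 24 libraries, 27 with both covariates, 2 without the 2 lowest in adipocyte score, 3 with the adipocyte covariate, and 1 to 8 leaving out 1 library. The genotype difference stayed at 0 genes in every setting run. The causes were not tested.

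Within a genotype, deviations of libraries with the same replicate number were correlated at 0.0714 at most. Of all 18 same-number pairs 6 were correlated above 0.1, all of them across genotypes. The highest was 0.389, and Control ZT4 replicate 3 with HepDKO ZT4 replicate 3 had 0.244. Among libraries of the same genotype at the other time, 2 of 12 libraries matched best with their own number. Whether a number stood for a batch shared across genotypes was not tested. A fit with the replicate number as a block called 197 genes, 166 of them among the 203, and the pairing changed the Control count to 17 and left HepDKO at 5. Among genes named, it ended the call of Herpud1 and gave one to Fkbp5 and Thrsp.

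Of the 88 genes named, 1144 estimates under other settings gave 3 changes of sign (Plcd3, -0.0103 without the 2 shallowest libraries; Nr1d2, 0.138, and Ciart, 0.153, without the 2 high in Lars2), and 1056 leaving out 1 library gave 2, both for Clock (-0.0496 to 0.0288). Of score differences that did not pass, these changed sign leaving out 1 library: -0.58 to 0.18 (skeletal muscle), -0.186 to 0.0151 (Schwann cell), -0.212 to 0.0215 (neuron), -0.11 to 0.11 (sympathetic and chromaffin), -0.0902 to 0.2005 (mural cell), -0.0013 to 0.20 (macrophage), -0.15 to 0.21 (erythrocyte); the erythrocyte share of counts gave -0.00104 percentage points. The shallowest library, at 1813994 counts, limits what can be seen for scarce genes, with 3 counts being 0.000165% of its total.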

Other observations

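Among the 203 genes were others outside the naming rule, chosen here after their values were seen. Nfe2l2, which encodes the antioxidant regulator NRF2, was higher at ZT16, with no overlap, 82.1, 85.2 and 89.8 CPM (lowest, median, highest) at ZT4 and 107, 115 and 118 at ZT16 (log2 fold change 0.41, SE 0.06, edgeR adjusted p 0.00417). The detoxifying enzymes Gsta3, a glutathione transferase, and Fmo1, a flavin monooxygenase, were also higher, with log2 fold changes of 1.49 and 1.23 (edgeR adjusted p 0.00422 and 0.00885), beside Fmo2 in the report. Mlx, the partner of the glucose-sensing factors ChREBP and MondoA, ran 11.2, 12.8 and 14.2 CPM at ZT4 and 16.9, 19.6 and 21.6 at ZT16 (log2 fold change 0.61, edgeR adjusted p 0.00861). Penk, the enkephalin precursor, ran 4.94, 5.63 and 7.68 CPM at ZT4 and 9.12, 11.5 and 13.7 at ZT16 (log2 fold change 0.99, edgeR adjusted p 0.00495). Fstl3, which binds activins, was higher together with the activin subunit gene Inhbb (log2 fold change 1.17, edgeR adjusted p 0.0166). Cdkn1c, a cyclin-dependent kinase inhibitor, had 0.68 (0.00907 in the same edgeR test). The scarce transcripts Rwdd2a and Tgm3 had 2.18 and 2.77, from ZT4 means of 0.753 ± 0.327 and 0.352 ± 0.307 CPM (SD, n = 6).

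Lower at ZT16 were Fgfr2, a fibroblast growth factor receptor (log2 fold change -1.02, edgeR adjusted p 0.0124), Megf10, an engulfment receptor of glia and muscle progenitors (-0.98, 0.012 in the same edgeR test), Cspg4, the NG2 proteoglycan (-0.59, 0.0109), and the phosphate transporter Slc20a2 (-0.43, 0.00907). For these 4 genes, chosen after their values were seen, the libraries of the 2 times did not overlap, against 0.718% of all genes tested in that direction. All 13 genes of these paragraphs passed in each fit that left out 1 library, but they were picked by their values in these same libraries. With the adipocyte score as a covariate Fgfr2, Cspg4, Fstl3 and Tgm3 did not pass (edgeR adjusted p 0.0552, 0.0652, 0.0572 and 0.0552), and without the 2 libraries high in Lars2 Megf10 and Tgm3 did not (0.0606 and 0.0600). Without the 2 libraries lowest in adipocyte score Fstl3 did not pass (0.0557), and with all 24 nodose libraries neither Fstl3 (0.103) nor Cdkn1c (0.143) did. Fstl3 shares 1157 exon bases with Prss57 on the opposite strand, Cdkn1c 589 with Gm44732, Mlx 385 with Psmc3ip, Penk 157 with A830012C17Rik and Slc20a2 95 with Smim19.

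The largest estimates among all genes tested were those of Lars2, at -5.70 (SE 1.79, edgeR adjusted p 0.191), and Mir6236, at -5.51 (SE 1.81, edgeR adjusted p 0.212); both rest on the 2 libraries named in the report, and neither passed.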
